A study of Mus musculus with 24 samples.

Results

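Pald1, Rab3il1, Lrp8, Gls2, Rasgrp1 and Tnfaip8l3 were followed in mouse macrophages (BMDMs) and dendritic cells (BMDCs), both grown from bone marrow, that did or did not receive DMXAA, a small-molecule agonist of mouse STING. They are 6 of the 54532 genes in the expression table. Pald1 and Rab3il1 were picked because they fell far under DMXAA, and the other 4 because the WT-labelled BMDCs and BMDMs differed in how they responded. The genes were chosen by fitted DMXAA responses (log2 fold changes), for these 4 in WT-labelled cells, while the rule for Pald1 and Rab3il1 names no label. DMXAA responses of Pald1 and Rab3il1 in any cells, and of the other 4 in WT-labelled cells, are therefore a description with no test. The other 4 were tested between CRE-labelled libraries, and resting levels between CRE-labelled cell types were tested for all 6.

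There were 24 libraries of polyA RNA in 8 groups of 3, formed by cell type, genotype label and treatment. All mice carried floxed alleles of Tmem173, the gene for STING, and all received tamoxifen. The WT label stands for Tmem173 fl/fl and the CRE label for Tmem173 fl/fl with a tamoxifen-inducible Cre under Lyz2, a gene of the myeloid lineage, so that deletion in cultured cells depends on Lyz2 activity and on tamoxifen given to the animal. DMXAA was given at 40 µM according to the series description, whereas the methods of the study state µg/mL, so the concentration is uncertain. Medium conditioned by L929 fibroblasts drove BMDM differentiation, while GM-CSF plus IL-4 drove that of BMDCs. The methods give more than 1 age for tamoxifen-treated mice of these genotypes and tie none to these cultures. Whether the libraries of a group came from separate animals or cultures is not given in the sources used here, so p-values measure the spread between libraries, which may be technical.

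STING is an adaptor of the endoplasmic reticulum that, once bound by cyclic dinucleotides or by DMXAA, recruits TBK1 and activates IRF3 and NF-kB, which leads to the transcription of type I interferons and inflammatory cytokines. The 6 genes do not belong to one pathway. Pald1 encodes paladin, a phosphatase-domain protein reported to act on phosphoinositides, and Rab3il1 encodes a guanine nucleotide exchange factor of the Rab3 and Rab8 group. Lrp8 encodes the apolipoprotein E receptor 2, which also binds reelin, Gls2 encodes liver-type mitochondrial glutaminase, Rasgrp1 encodes a diacylglycerol-activated exchange factor for Ras, and Tnfaip8l3 encodes a lipid transfer protein of the TNFAIP8 family that binds phosphoinositides.

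In GRCm38, the protein-coding gene Pald1 (ENSMUSG00000020092) spans chr10:61319656-61383530 on the minus strand and Rab3il1 (ENSMUSG00000024663) spans chr19:10001669-10038380 on the plus strand. Lrp8 (ENSMUSG00000028613) lies at chr4:107802261-107876840 on the plus strand and Gls2 (ENSMUSG00000044005) at chr10:128194457-128210004 on the plus strand. Rasgrp1 (ENSMUSG00000027347) lies at chr2:117279993-117343001 and Tnfaip8l3 (ENSMUSG00000074345) at chr9:54023405-54068388, both on the minus strand. Promoter sequences from RefSeq (GRCm38.p6) were matched by symbol for 5 of the 6 genes, Gls2 being the other. The first listed window of each, 250 bases before the annotated start, is shown 5′ to 3′ on the strand of the gene because the steep falls of Pald1 and Rab3il1 and the unlike rises of the others are changes in transcript level. RefSeq lists 5 windows for Rab3il1 and 3 for Lrp8, and the first of each begins inside the gene span given above. The windows of Pald1 and Rasgrp1 lie partly inside their gene spans. Which start site these cells used was not measured. Capitals mark matches to the motifs searched. The windows are chr10:61383340-61383589, minus strand for Pald1, chr19:10017944-10018193, plus strand for Rab3il1, chr4:107802635-107802884, plus strand for Lrp8, chr2:117342878-117343127, minus strand for Rasgrp1 and chr9:54068412-54068661, minus strand for Tnfaip8l3.
Pald1: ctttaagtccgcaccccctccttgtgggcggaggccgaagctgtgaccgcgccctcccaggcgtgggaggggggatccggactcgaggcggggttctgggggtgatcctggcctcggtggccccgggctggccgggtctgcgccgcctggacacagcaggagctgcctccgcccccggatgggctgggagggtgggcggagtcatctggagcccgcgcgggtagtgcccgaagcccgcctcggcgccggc
Rab3il1: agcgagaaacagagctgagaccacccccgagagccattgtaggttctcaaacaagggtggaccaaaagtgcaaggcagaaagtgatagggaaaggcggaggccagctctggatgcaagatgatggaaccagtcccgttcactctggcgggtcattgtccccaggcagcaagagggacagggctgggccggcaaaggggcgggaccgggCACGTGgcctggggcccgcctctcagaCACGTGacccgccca
Lrp8: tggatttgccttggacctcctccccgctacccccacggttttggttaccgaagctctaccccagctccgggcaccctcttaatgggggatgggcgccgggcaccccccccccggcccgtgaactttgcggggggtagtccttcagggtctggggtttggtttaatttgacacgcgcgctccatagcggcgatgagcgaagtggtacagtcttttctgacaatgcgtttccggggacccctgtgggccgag
Rasgrp1: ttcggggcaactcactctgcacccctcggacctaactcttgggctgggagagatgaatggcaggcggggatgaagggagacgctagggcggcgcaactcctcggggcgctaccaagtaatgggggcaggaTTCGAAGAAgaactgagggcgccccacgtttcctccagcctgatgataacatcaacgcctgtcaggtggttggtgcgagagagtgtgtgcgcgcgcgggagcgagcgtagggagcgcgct
Tnfaip8l3: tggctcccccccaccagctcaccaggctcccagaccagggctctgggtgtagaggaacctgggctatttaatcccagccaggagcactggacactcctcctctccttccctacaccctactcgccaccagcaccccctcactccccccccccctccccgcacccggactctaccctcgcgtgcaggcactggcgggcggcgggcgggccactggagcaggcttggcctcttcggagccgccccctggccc

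Both strands of these windows were searched for the interferon-stimulated response element and the NF-kB motif by name, the gamma-activated site bound by STAT factors (TTCNNNGAA), the E-box CACGTG, a PU.1-type ETS motif (GAGGAAGT), a GC box (GGGGCGGGG) and an AP-1 motif (TGANTCA). The Rab3il1 window held CACGTG at 42 and at 15 bases before the start, a motif present in 6.02% of 32851 RefSeq promoter windows of the same length. A second, overlapping Rab3il1 window held the same pair, and the other 3, among them the one that ends just before the gene span, held no match to any motif searched. The Rasgrp1 window held TTCGAAGAA, a match to the gamma-activated site, at 120 bases before the start, and 7.02% of all windows held a match to that motif. The windows of Pald1 and Tnfaip8l3 and the 3 of Lrp8 held none of these letters, and the interferon-stimulated response element was in 2.98% of all windows, the NF-kB motif in 3.90%, the ETS motif in 2.44%, the GC box in 10.4% and the AP-1 motif in 6.75%. A match is a description of the letters and not of a bound site.

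Total counts per library ranged from 15657347 to 18912887, and 10398 to 11458 genes per library reached 1 FPKM (fragments per kilobase of transcript and mapped library size). Tmem173 averaged 28.3 ± 8.59 FPKM (SD, n = 3) in CRE control BMDCs against 38.5 ± 11.8 FPKM (SD, n = 3) in WT control BMDCs. In control BMDMs numbered 1 and 2 it was 9.60 ± 1.19 FPKM (SD, n = 2) against 12.3 ± 3.37 FPKM (SD, n = 2). With DMXAA it was 30.9 ± 5.74 against 41.9 ± 11.6 FPKM in BMDCs (SD, n = 3 each). In those BMDMs with DMXAA it was 9.63 ± 0.72 against 27.3 ± 6.40 FPKM (SD, n = 2 each). Counts of the targeted transcript were thus still present in CRE-labelled cells, but counts per gene do not show whether its floxed part was lost. All 9 interferon-response genes used to check the agonist, Ifit1, Isg15 and Cxcl10 among them, were called higher under DMXAA in CRE-labelled BMDCs and BMDMs by edgeR.

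A set of libraries stood apart. The 4 BMDM libraries numbered 3, 1 in each BMDM group, had 42.8 to 71.2 CPM (counts scaled to a common library total) summed over 8 macrophage markers, against 9775 to 21374 CPM in the other 8 BMDM libraries, and 0.556 to 2.96 CPM over 8 leukocyte markers against 4280 to 6371 CPM. Their 8 fibroblast markers summed to 14352 to 21277 CPM, against 58.7 to 741 CPM in the other 8. The labelled cell type is thus not borne out by their markers, and BMDM comparisons used numbers 1 and 2, with the libraries numbered 3 shown beside them. In BMDCs the 9 dendritic cell markers summed to 3748 to 10474 CPM in all 12 libraries.

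Libraries also lay close together across labels. A noise index was used that is 1 where a pair of libraries differ by counting noise alone. In BMDCs, 4 pairs of a WT-labelled and a CRE-labelled library of the same treatment had an index of 2.54 to 3.21, below every one of the 12 pairs within a BMDC group, which ran from 5.62 to 56.2. The CRE-labelled BMDC libraries numbered 1 and 3 are all in such pairs, and the sources used here do not say why. The CRE-labelled BMDC responses are therefore not cleanly separate from the WT-labelled libraries that chose the genes, and each is also given from CRE number 2 alone. That fit sets 1 treated CRE library against 1 control and takes its spread from other groups, so only its change is read. That pair of libraries differed in makeup as well, with macrophage markers at 2053 to 2203 CPM against at least 5964 CPM in the other 10 BMDC libraries, and 8 neutrophil markers at 168 to 368 CPM against at most 23.9 CPM. In bulk RNA, fewer cells of a type and less RNA per cell cannot be told apart.

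**Figure D1:**
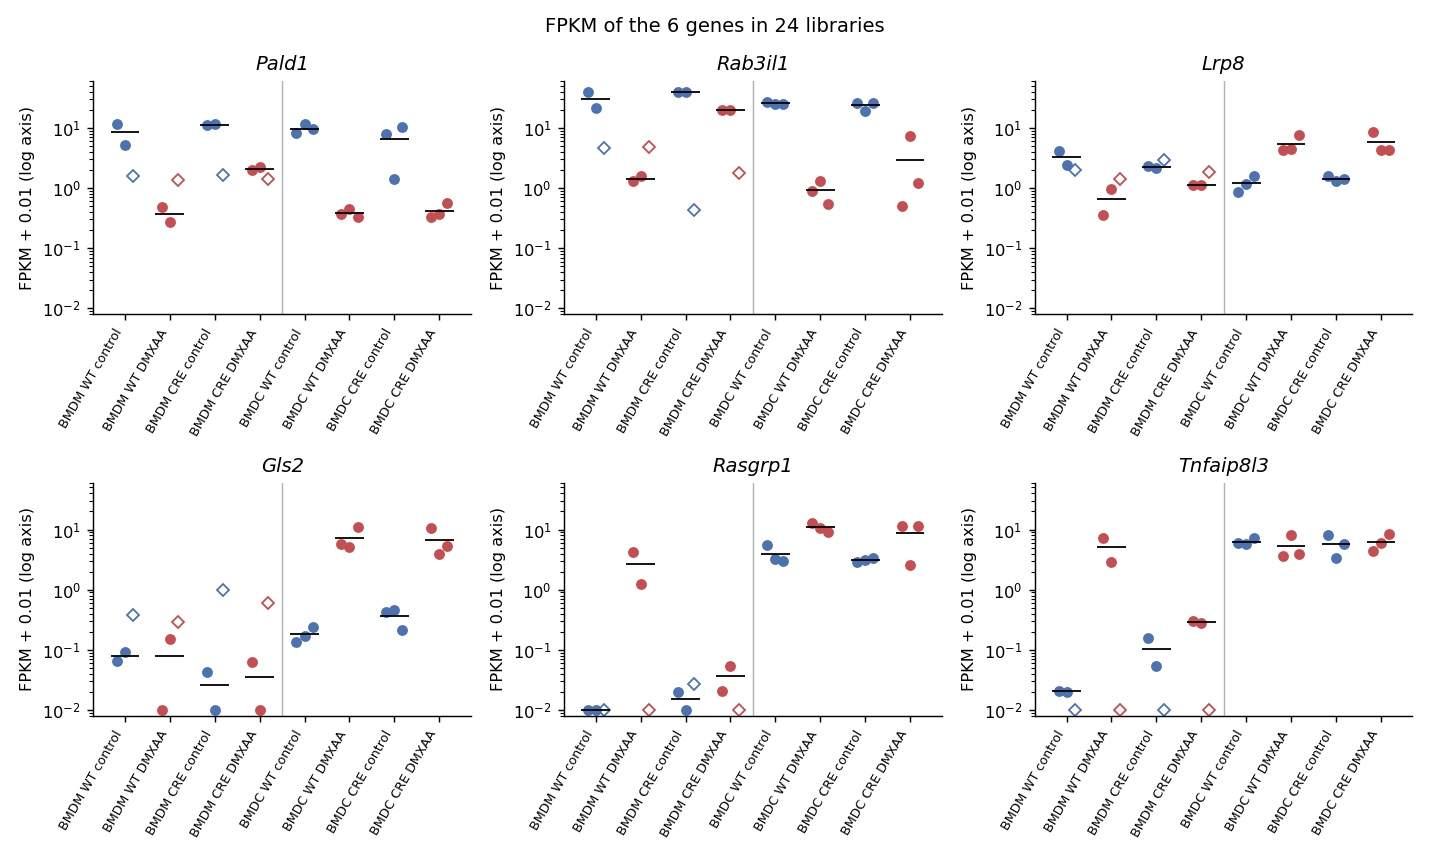
FPKM plus 0.01 (log axis) of each gene in the 24 libraries, 1 point per library, by group, with control libraries in blue and DMXAA libraries in red. Open diamonds are the BMDM libraries numbered 3 and horizontal lines are group means without them. Pald1 and Rab3il1 sit lower under DMXAA in both cell types, Lrp8 moves in opposite directions, and Gls2, Rasgrp1 and Tnfaip8l3 are near 0 in resting BMDMs.

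Pald1 was among the most strongly lowered transcripts in both cell types. In WT BMDCs it was 8.06, 11.4 and 9.39 FPKM without agonist and 0.354, 0.434 and 0.322 FPKM with DMXAA, so that 3.85% of the mean level was left. In WT BMDMs numbered 1 and 2 it was 11.6 and 5.18 FPKM without and 0.468 and 0.259 FPKM with DMXAA, which left 4.34%. The treated and untreated libraries did not overlap in either cell type, and the fitted log2 fold changes, which chose the gene, were -4.72 and -4.65. In WT cells 32.2% of genes tested in BMDCs were called (17.0% higher and 15.2% lower) and 39.2% of those tested in BMDMs (18.4% higher and 20.7% lower), shares from which nothing is read here because the same contrasts chose the genes.

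In CRE BMDCs Pald1 was 8.05, 1.39 and 10.4 FPKM without agonist and 0.316, 0.355 and 0.552 FPKM with DMXAA. Control number 2 was the low one, but it was still above every treated library. Of all genes tested in BMDCs, 25.4% were called in the CRE response at an adjusted p under 0.05 (14.0% higher and 11.4% lower), and 5 of the 6 genes described here were among them, a count that includes Pald1 and Rab3il1, for which it restates the choice. The fitted change of Pald1 was -4.04 log2 units, the 14th lowest of 12126 genes. With CRE number 2 alone, whose control holds the low value, it was -2.01, in a fit that assumed these lone libraries vary like the other groups.

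In CRE BMDMs numbered 1 and 2, Pald1 was 10.99 and 11.5 FPKM without agonist and 1.95 and 2.21 FPKM with DMXAA. It kept 18.5% of its control level there, against 4.34% in WT BMDMs, and both treated CRE libraries were above both treated WT libraries. Of the genes tested in BMDMs, 10.0% were called in the CRE response (7.28% higher and 2.72% lower). Of the 5 genes described here that reached the filter, 1 was called, Pald1, for which the call restates the choice and is no test. This call was lost with each of the 4 libraries left out in turn. The fitted change of Pald1 was -2.45 log2 units, and -2.37 to -2.55 with a library left out. Rasgrp1 and Tnfaip8l3 reached the filter through the WT DMXAA libraries alone.

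The libraries numbered 3 did not share the fall. There Pald1 was 1.59 FPKM in the WT control and 1.35 FPKM with DMXAA, and 1.66 and 1.41 FPKM in the CRE pair. These libraries did respond to the agonist in part, since Cxcl10, an interferon-induced chemokine, was 1.61 FPKM in the WT control and 25.4 FPKM with DMXAA, and 0.377 and 20.1 FPKM in the CRE pair. Adding them to the CRE BMDM fit gave -2.14 log2 units for Pald1.

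Rab3il1 started higher than Pald1 per length of transcript and fell as steeply in WT cells. In WT BMDCs it was 26.7, 24.8 and 25.4 FPKM without agonist and 0.891, 1.29 and 0.540 FPKM with DMXAA. In WT BMDMs numbered 1 and 2 it was 39.0 and 21.0 FPKM without and 1.28 and 1.55 FPKM with DMXAA. The treated level was 3.54% of the control in BMDCs and 4.73% in BMDMs, with fitted log2 fold changes of -4.84 and -4.50 that chose the gene.

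In CRE BMDCs Rab3il1 was 26.0, 19.1 and 25.5 FPKM without agonist and 0.489, 7.18 and 1.22 FPKM with DMXAA. Library number 2 kept 37.7% of its control level, where numbers 1 and 3 kept 1.88% and 4.78%, and all treated libraries were below all controls. The fitted change was -3.02 log2 units, the 35th lowest, and -1.46 with number 2 alone.

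CRE BMDMs kept much more Rab3il1 under DMXAA. The libraries numbered 1 and 2 were at 38.8 and 39.2 FPKM without agonist and at 19.5 and 19.9 FPKM with DMXAA, which left 50.5% of the control level. The treated CRE mean of 19.7 ± 0.35 FPKM (SD, n = 2) was 13.9 times the treated WT mean of 1.42 ± 0.19 FPKM (SD, n = 2). The untreated means were 39.0 ± 0.26 and 30.0 ± 12.7 FPKM (SD, n = 2 each). The CRE SDs are between libraries that lie close together. The fitted CRE BMDM response was -1.01 log2 units.

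In the BMDM libraries numbered 3, Rab3il1 was 4.59 and 4.79 FPKM in the WT pair and 0.426 and 1.74 FPKM in the CRE pair. No fall was seen in these libraries. The fitted responses of Pald1 and Rab3il1 in CRE cells, BMDCs minus BMDMs, were -1.57 and -1.99 log2 units apart. Without CRE BMDC number 2 these differences were -1.95 and -3.90, and with number 2 alone they were 0.45 and -0.44. The direction for Pald1 thus depends on which BMDC libraries are used.

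**Figure D2:**
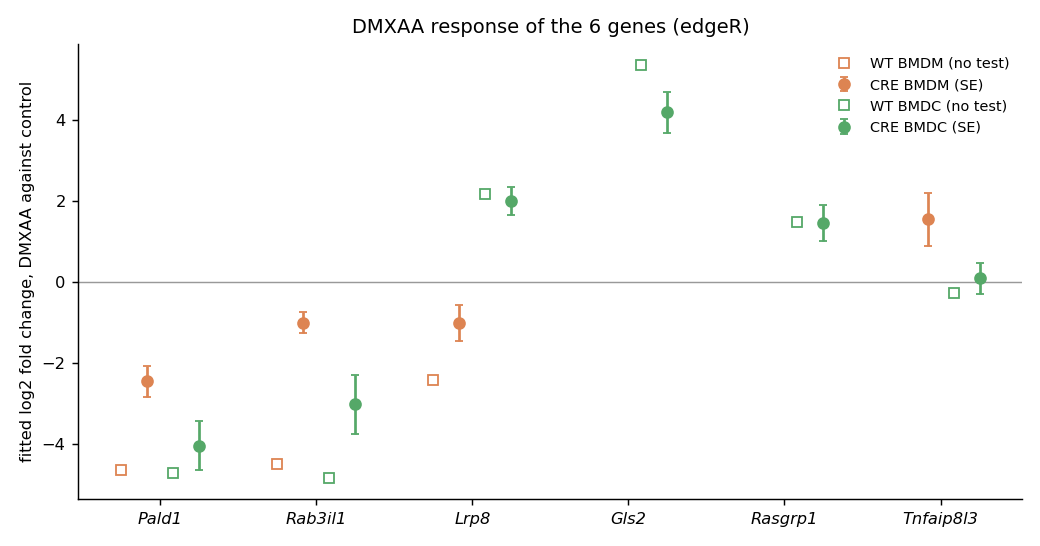
Fitted log2 fold change of DMXAA against control for each gene, in BMDMs numbered 1 and 2 (orange) and BMDCs (green). Filled circles are CRE-labelled cells with SE bars and open squares are WT-labelled cells, which chose the genes. Neither these nor any value of Pald1 and Rab3il1 carry a test. BMDM values of Gls2 and Rasgrp1, and of Tnfaip8l3 in WT cells, are left out because their control libraries are at or near 0 counts. Pald1 and Rab3il1 lie below 0 in every group shown, and Lrp8 lies above 0 in BMDCs and below 0 in BMDMs.

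Lrp8 was higher with DMXAA in BMDCs and lower in BMDMs. In WT BMDCs it was 0.851, 1.16 and 1.56 FPKM without agonist and 4.26, 4.43 and 7.48 FPKM with DMXAA. In WT BMDMs numbered 1 and 2 it was 4.12 and 2.42 FPKM without and 0.345 and 0.955 FPKM with DMXAA. The groups did not overlap in either cell type, and the order was opposite, a difference for which the gene was chosen. The fitted log2 fold changes were 2.16 and -2.42.

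The CRE-labelled libraries showed the same order. Lrp8 was 1.55, 1.29 and 1.40 FPKM in CRE control BMDCs and 8.57, 4.31 and 4.31 FPKM with DMXAA. In CRE BMDMs numbered 1 and 2 it was 2.29 and 2.13 FPKM without agonist and 1.10 and 1.11 FPKM with DMXAA, 47.9% and 52.2% of the control of the same number. Lrp8 rose in CRE BMDCs by 1.99 ± 0.34 log2 units (SE, edgeR adjusted p = 0.00146), and with number 2 alone by 1.69. The change of -1.02 ± 0.45 in CRE BMDMs did not pass (edgeR adjusted p = 0.199).

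The responses of the cell types themselves differed for Lrp8. The CRE difference, BMDC response minus BMDM response, was 3.03 ± 0.58 log2 units (SE, edgeR adjusted p = 0.0234). Of 13368 genes tested, 0.606% were called for this difference (0.389% higher in BMDCs and 0.217% lower), 81 genes, and Lrp8 was the 1 of the 6 genes called. The same contrast in WT cells chose the gene, so this test repeats it in libraries that the choice did not use, of which 4 lie close to WT-labelled ones. The size held at 2.63 to 3.20 with each CRE library left out in turn, but the adjusted p was above 0.05 in 7 of the 10 cases. The difference was 2.72 with CRE BMDC number 2 alone, and 3.03 with the close-lying CRE BMDMs numbered 1 and 2 summed to 1 sample. Such fits leave 1 library in a CRE group, so no p-value is given for them. With the libraries numbered 3 included the difference was 2.83 (edgeR adjusted p = 0.563).

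The libraries numbered 3 had Lrp8 at 1.95 and 1.39 FPKM in the WT pair and at 2.89 and 1.81 FPKM in the CRE pair. Lrp8 shares its locus with the antisense genes Lrp8os1 and Lrp8os2, whose group means were at most 0.218 FPKM. Without knowledge of strand, reads of overlapping genes cannot be told apart, but these partners were well below Lrp8 in every group. The genes with the pattern most like Lrp8 over 20 libraries (log2(FPKM + 1), without the BMDMs numbered 3, which share cell type, treatment and library makeup) were Cdyl (Pearson r = 0.859), Ifna1 (0.857) and Ifna6 (0.856). Ifna1 and Ifna6 are near-identical copies of a multigene family, so their counts are uncertain.

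**Figure D3:**
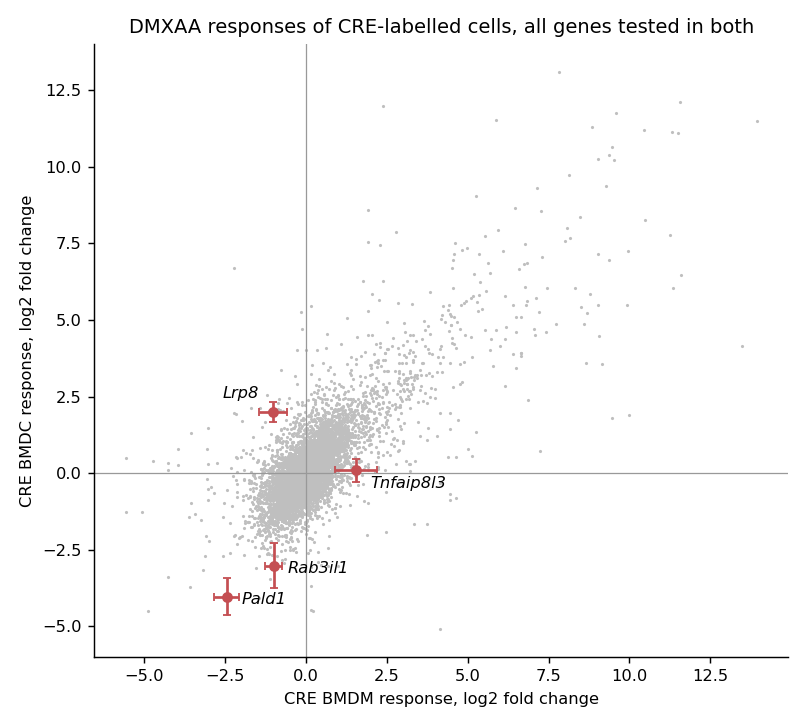
Log2 fold change of DMXAA against control in CRE-labelled BMDMs numbered 1 and 2 (horizontal axis) and CRE-labelled BMDCs (vertical axis) for the 10865 genes tested in both (grey), with the 4 described genes that have usable values on both axes in red and SE bars. Pald1 is at -2.45 and -4.04, Rab3il1 at -1.01 and -3.02, Lrp8 at -1.02 and 1.99, and Tnfaip8l3 at 1.54 and 0.09.

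Gls2, the glutaminase that turns glutamine into glutamate in mitochondria, was higher with DMXAA in BMDCs from a level close to 0. In WT BMDCs it was 0.124, 0.161 and 0.234 FPKM without agonist and 5.73, 5.10 and 11.03 FPKM with DMXAA. In CRE BMDCs it was 0.422, 0.457 and 0.200 FPKM without and 10.6, 3.96 and 5.37 FPKM with DMXAA. The groups were far apart, and the smallest rise within a number was 8.66-fold, in CRE number 2.

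Gls2 rose in CRE BMDCs by 4.17 ± 0.50 log2 units (SE, edgeR adjusted p = 0.000132), and with number 2 alone by 3.06. None of the BMDC controls reached 1 FPKM, so the gene entered this test through its DMXAA libraries, and passing the filter in this way favours a rise. With no filter on low values the change was 4.16 (edgeR adjusted p = 1.3e-11), in a fit that gave smaller p values for other genes here too. The fitted WT value, which chose the gene, was 5.35. The CRE BMDC response called 3084 genes with all libraries and 5181 with the replicate number as a block.

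BMDMs numbered 1 and 2 had little Gls2 in any group. The WT libraries held 4 and 6 counts without agonist and 0 and 7 counts with DMXAA, and the CRE libraries 2 and 0 counts without and 3 and 0 counts with DMXAA. CRE BMDMs were thus at or under the floor of 3 counts per library with and without agonist, no fold is given, and the gene did not reach the filter for the BMDM test. A response of Gls2 was not detectable in them at this depth.

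Between resting CRE cells, Gls2 was higher in BMDCs, at 73 counts over 3 libraries against 2 counts over 2 BMDM libraries. The ratio was 25.1 with an exact 95% interval of 6.69 to 211 that covers counting error only, and the fitted difference was 4.35 ± 1.07 log2 units (SE, edgeR adjusted p = 0.00589). Of all genes tested, 27.4% were called between resting CRE cells (14.0% higher in BMDCs and 13.4% lower), and 3 of the 6 were among them. No resting library in this fit reached 1 FPKM of Gls2, which entered it through DMXAA-treated BMDCs, and the call was lost without BMDM control number 2 (3.38, edgeR adjusted p = 0.0843) and with limma on log2(FPKM + 1) (0.42, adjusted p = 0.353), though not with limma on log2(FPKM + 0.1) (1.95, adjusted p = 0.00827). The difference of the responses between cell types depended on the method for Gls2, whose BMDMs are at the floor. edgeR gave 3.503 ± 2.15 log2 units (SE, adjusted p = 0.655), and limma gave 2.39 on log2(FPKM + 1) and 3.70 on log2(FPKM + 0.1), with adjusted p = 0.0105 and 0.019.

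The libraries numbered 3 held more Gls2 than the other BMDMs, at 0.376 and 0.284 FPKM in the WT pair and 0.979 and 0.588 FPKM in the CRE pair. With them in the fit the resting difference was 0.16 (edgeR adjusted p = 0.97). Spryd4 overlaps Gls2 on the opposite strand and had group means of 4.72 to 9.85 FPKM. In the CRE BMDM groups, with the libraries numbered 3 included, it averaged 6.30 and 6.25 FPKM. Gls2 averaged 0.337 and 0.213 FPKM over the same libraries. The genes most like Gls2 over the 20 libraries were Ifna4 (Pearson r = 0.990), the gene model Gm37711 (0.990) and Ifna5 (0.988). Ifna4 averaged 33.7 FPKM in WT DMXAA BMDCs and 28.1 FPKM in CRE DMXAA BMDCs, was listed at 0 in all control groups and in CRE DMXAA BMDMs, and averaged 0.0617 FPKM in WT DMXAA BMDMs.

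Rasgrp1 was present in resting BMDCs and at 0 in resting WT BMDMs. WT BMDCs had 5.47, 3.17 and 2.99 FPKM without agonist and 13.1, 10.6 and 9.23 FPKM with DMXAA. WT BMDMs numbered 1 and 2 had 0 and 0 counts without agonist and 264 and 99 counts, or 4.17 and 1.22 FPKM, with DMXAA. Against a floor of 3 counts per library the WT BMDM level was at least 63.8-fold higher under DMXAA, whereas the WT BMDC mean was 2.83 times its control.

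In CRE BMDMs this rise was not seen. The libraries numbered 1 and 2 held 1 and 0 counts without agonist and 1 and 4 counts with DMXAA, at or near the floor. Over the treated libraries the WT label held 363 counts and the CRE label 5. The BMDM libraries numbered 3 held 0 to 2 counts.

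CRE BMDCs had 2.92, 3.06 and 3.33 FPKM of Rasgrp1 without agonist and 11.6, 2.60 and 11.7 FPKM with DMXAA. Numbers 1 and 3 rose 3.99-fold and 3.49-fold, and number 2 was at 85.0% of its control, so the groups overlapped. The change was 1.45 ± 0.45 log2 units (SE, edgeR adjusted p = 0.0341). The call was lost in 5 of 6 fits that left out 1 CRE BMDC library and with limma on log2(FPKM + 1) (adjusted p = 0.0949), and number 2 alone gave -0.28. The rise in CRE BMDCs therefore rests on libraries 1 and 3.

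Resting CRE BMDCs held 1006 counts of Rasgrp1 over 3 libraries and resting CRE BMDMs 1 count over 2, a ratio of 691 with an exact 95% interval of 124 to 27300 for counting error. The difference passed (edgeR adjusted p = 3.11e-05). Rasgrp1 is known from T cells and mast cells. The 8 mast cell and basophil markers summed to 49.1 to 510 CPM in BMDCs and to 1.04 to 38.7 CPM in BMDMs numbered 1 and 2, where Mcpt4, Ms4a2 and Tpsb2 were at 0. The 8 T and NK cell markers summed to 1.17 to 15.3 CPM in BMDCs and 0.275 to 7.21 CPM in those BMDMs. CRE BMDC number 2 had the lowest mast cell sums, 49.1 to 63.8 CPM, and its resting Rasgrp1 of 3.06 FPKM was within the range of the other CRE controls. The part of these cells in the result was not tested.

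Tnfaip8l3 was expressed in BMDCs with and without agonist and was near 0 in resting WT BMDMs. WT BMDCs had 5.98, 5.66 and 7.25 FPKM without agonist and 3.61, 8.20 and 3.95 FPKM with DMXAA. WT BMDMs numbered 1 and 2 had 1 count each without agonist and 375 and 193 counts, or 7.23 and 2.91 FPKM, with DMXAA. The BMDC groups overlapped, and the BMDM groups did not, in the WT cells whose responses chose the gene.

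CRE BMDCs had 8.11, 3.41 and 5.80 FPKM without agonist and 4.31, 5.93 and 8.52 FPKM with DMXAA. The groups overlapped, 2 of 3 numbers were higher and 1 lower with DMXAA, and the change of 0.09 ± 0.38 log2 units (SE) did not pass (edgeR adjusted p = 0.902). Its sign was negative without control number 2 (-0.18) or DMXAA number 3 (-0.20). With number 2 alone the change was 0.75, and with numbers 1 and 3 only it was -0.135.

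In CRE BMDMs Tnfaip8l3 stayed low. The libraries numbered 1 and 2 held 12 and 4 counts without agonist and 22 and 20 counts, or 0.289 and 0.270 FPKM, with DMXAA. The treated CRE mean was 5.51% of the treated WT mean, and the response of 1.54 ± 0.64 log2 units (SE) did not pass (edgeR adjusted p = 0.187). The gene reached the filter of this fit through the WT DMXAA libraries alone. With no filter on low values the change was 1.56 (edgeR adjusted p = 0.0196), in a fit that gave smaller p values for other genes here too. The BMDM libraries numbered 3 held 0 counts of Tnfaip8l3 in all 4 cases. Resting CRE BMDCs were higher than resting CRE BMDMs by 5.90 ± 0.66 log2 units (SE, edgeR adjusted p = 8.19e-06). The responses of the cell types in CRE cells differed by -1.43 ± 0.82 log2 units for Tnfaip8l3, which did not pass (SE, edgeR adjusted p = 0.613).

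In resting CRE cells the order of the genes by mean FPKM was Rab3il1 (23.5), Pald1 (6.61), Tnfaip8l3 (5.77), Rasgrp1 (3.10), Lrp8 (1.41) and Gls2 (0.360) in BMDCs. Pald1 and Tnfaip8l3 do not differ there beyond their spread of 4.68 and 2.35 FPKM (SD, n = 3 each). In BMDMs numbered 1 and 2 the order was Rab3il1 (39.0), Pald1 (11.2), Lrp8 (2.21), Tnfaip8l3 (0.0952), Gls2 (0.0161) and Rasgrp1 (0.00499), of which Gls2 and Rasgrp1 are both within the floor and cannot be ordered. Pald1, Rab3il1 and Lrp8 were not called between resting CRE cell types, at -0.78, -0.75 and -0.67 log2 units for BMDCs minus BMDMs (edgeR adjusted p = 0.308, 0.432 and 0.238). For Pald1 the difference was -2.99 with CRE BMDC number 2 alone, whose Pald1 control level was 1.39 FPKM.

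Across the 20 libraries some pairs of the genes had like patterns. Pearson r of log2(FPKM + 1) was 0.893 for Pald1 and Rab3il1, 0.852 for Lrp8 and Gls2 and 0.842 for Rasgrp1 and Tnfaip8l3. Across these pairs, r was 0.763 for Gls2 and Rasgrp1, and Rab3il1 had -0.779 with Gls2 and -0.722 with Rasgrp1. Lrp8 and Tnfaip8l3 had an r of 0.04. The points share cell type and treatment, and the genes were chosen for those differences, so these values describe the choice. Among the genes most like Pald1 were Ap2a2 (0.973) and the myosin gene Myo7a (0.968). Myo7a averaged 6.83 FPKM in CRE control BMDCs and 2.80 FPKM with DMXAA, and 10.2 and 5.92 FPKM in CRE BMDMs.

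Most like Rab3il1 were 6430548M08Rik (0.980), Klhl6 (0.971) and the potassium channel subunit gene Kcnab2 (0.969). Most like Rasgrp1 were Mir155hg, the host transcript of miR-155 (0.963), the cationic amino acid transporter gene Slc7a2 (0.961) and the glycerol kinase gene Gk (0.960). Mir155hg averaged 10.6 FPKM in WT DMXAA BMDMs and 0.0852 FPKM in CRE DMXAA BMDMs. Most like Tnfaip8l3 were Ch25h, the cholesterol 25-hydroxylase gene (0.954), Il21r (0.953) and Zyx (0.953). Ch25h averaged 72.4 FPKM in WT DMXAA BMDMs and 1.29 FPKM in CRE DMXAA BMDMs, beside 213 and 210 FPKM in WT and CRE DMXAA BMDCs.

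Each gene was set in a list of genes of related function, the gene itself included. For comparison with these counts, 14.0% of all genes tested were higher and 11.4% lower in CRE BMDCs, and 7.28% were higher and 2.72% lower in CRE BMDMs. Of 24 lipoprotein receptor and reelin pathway genes, 17 were tested in CRE BMDCs, where 5 rose and 1 fell, and 16 in CRE BMDMs, where 4 rose and 2 fell. The median change of this list was 0.47 log2 units in BMDCs and 0.15 in BMDMs, against -0.01 over all genes in either. Lrp4 rose in both CRE cell types, by 1.82 and 1.48 log2 units (edgeR adjusted p = 0.0054 and 0.0232), as did Lrp11 (1.61 and 1.04, edgeR adjusted p = 0.0018 and 0.0188) and Lrp10 (0.47 and 0.79, edgeR adjusted p = 0.0328 and 0.0405). Ldlrad3, an LDL receptor domain gene, fell in both (-1.61 and -1.79, edgeR adjusted p = 0.000735 and 0.0428). These 4 were named because they were called in both CRE responses, so a gene that responded in 1 cell type could not be among them. Of the 17 genes of the list tested for a difference between the cell types, 1 was called, beside 0.606% of all genes. It was Lrp8, which was chosen for this difference in WT cells.

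Of 26 glutamine and glutamate metabolism genes, 24 were tested in CRE BMDCs, where 2 rose, Gls2 being 1 of them, and 6 fell (14.0% and 11.4% over all genes), with a median of -0.40 log2 units. In CRE BMDMs 0 of 23 rose and 2 fell (7.28% and 2.72% over all genes), with a median of -0.18. Glul, the gene of glutamine synthetase, which makes glutamine from glutamate, fell in both, by 0.42 and 0.92 log2 units (edgeR adjusted p = 0.0344 and 0.0328).

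Of 34 Ras activator and Ras GTPase-activating protein genes, 26 were tested in each cell type, and 6 rose and 5 fell in CRE BMDCs (14.0% and 11.4% over all genes), while 3 rose and 0 fell in CRE BMDMs (7.28% and 2.72%). The medians were 0.02 and 0.08 log2 units. Rasa4, a calcium-regulated Ras GTPase-activating protein gene, rose in both, by 3.81 and 1.69 log2 units (edgeR adjusted p = 1.83e-06 and 0.000193). Rapgef2 rose by 2.46 and 1.19 (edgeR adjusted p = 2.74e-05 and 0.00957), and Rap1b, a Ras-related GTPase gene, rose by 1.06 and 0.79 (edgeR adjusted p = 0.00127 and 0.0161).

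Of 28 phosphoinositide phosphatase genes, 27 were tested in CRE BMDCs, where 4 rose and 3 fell (14.0% and 11.4% over all genes), and 26 in CRE BMDMs, where 3 rose and 1, Pald1, fell (7.28% and 2.72%). Pald1 was chosen for its fall, as was Rab3il1. The medians were -0.18 and 0.12 log2 units. Mtmr14 rose in both, by 1.91 and 0.79 log2 units (edgeR adjusted p = 5.41e-06 and 0.0224), as did the myotubularin gene Mtmr7 (1.97 and 1.62, edgeR adjusted p = 0.000204 and 0.00883) and Inpp5k, an inositol polyphosphate phosphatase gene (0.47 and 0.61, edgeR adjusted p = 0.0152 and 0.0494). Of 25 TNFAIP8 family and phosphoinositide kinase genes, 23 were tested in each, with 5 higher and 4 lower in CRE BMDCs and 1 higher and 0 lower in CRE BMDMs, beside 14.0%, 11.4%, 7.28% and 2.72% over all genes, and medians of 0.15 and 0.25. Of 27 Rab3 and Rab8 activation and secretory Rab genes, 3 of 19 tested rose and 2 fell in CRE BMDCs, Rab3il1 among those that fell, and 0 of 17 were called in CRE BMDMs, beside the same shares over all genes.

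**Figure D4:**
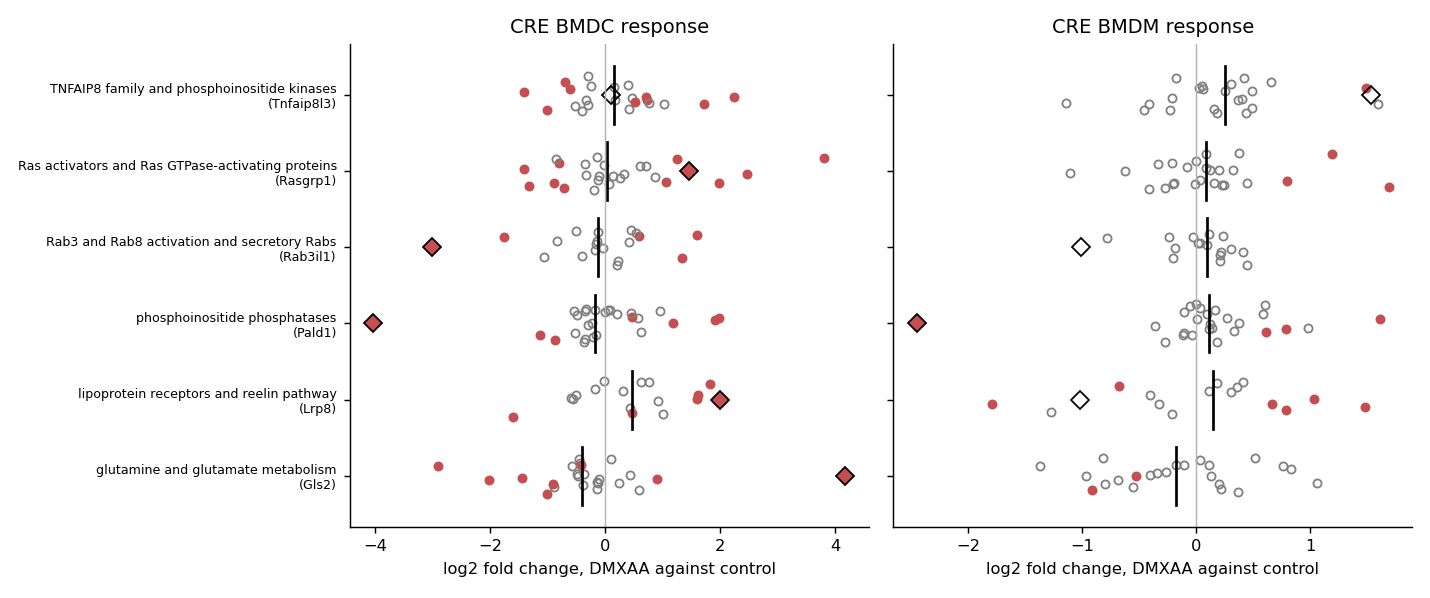
Log2 fold change of DMXAA against control for the tested genes of the 6 functional lists in CRE-labelled BMDCs (left) and CRE-labelled BMDMs numbered 1 and 2 (right). Filled points were called by edgeR, open points were not, diamonds are the described genes and black bars are list medians. Pald1, at -4.04 and -2.45, has the lowest value of its list on both sides, and Gls2, at 4.17, has the highest of its list in BMDCs. Pald1 was chosen for its fall and Gls2 for its responses in WT cells, so these places are not separate results.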

How the data were processed

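Gene expression was measured by RNA-seq of polyA RNA in 24 libraries, grouped by the labels, where CT and DX were read as control and DMXAA. The authors deposited raw counts and FPKM per gene for 54532 genes. The submitters' processing notes name CASAVA 1.8, fastp, HISAT2 2.0.5, featureCounts 1.5.0-p3, DESeq2 1.20.0 and GRCm38/mm10, and strandedness is not given in the sources used here. All 48 per-library columns were matched to a library. A further 60 columns with the authors' group means, fold changes and p-values were not used. The 6 genes and all lists were chosen with earlier results of these data known.

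Counts were tested in R 4.3.3 with edgeR 4.0.16 and its quasi-likelihood test (TMM scaling, two-sided, Benjamini-Hochberg over all genes tested), keeping genes at 1 FPKM or more in at least 3 libraries (BMDCs) or 2 libraries (other fits). Genes with an adjusted p under 0.05 were called. The 12 BMDC libraries, the 8 BMDM libraries numbered 1 and 2, and these 20 together each shared 1 fit. On simulated data with 200 genes changed 4-fold, 87% were recovered in the CRE BMDC and in the CRE BMDM fit, 66% for the difference of responses and 80% for the resting difference. The files hold no molecular identifiers, so reads are not separate molecules and intervals and floors of 3 counts per library cover counting error only. Named besides the 6 genes were, per list, those called in both CRE responses (at most 4, by size in BMDCs), the 3 genes with the highest Pearson r to each, and Ifit1, Isg15 and Cxcl10. One gene that this rule names is not reported here. Figures were drawn with matplotlib 3.10.9.

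Same-numbered control and DMXAA libraries deviated together in BMDCs, with correlations of 0.453 to 0.655 for the CRE label and 0.346 to 0.574 for the WT label over 3 pairs each, so these numbers were read as pairs. What a number stands for is not given by the labels, and the pairing rests on these correlations alone. The CRE BMDC fits with and without the libraries numbered 1 and 3, and the fit with CRE BMDMs 1 and 2 summed, were added after seeing the data.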

Additional observations from a re-analysis of the deposited data

Results flagged for a closer look

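The DMXAA response of Lrp8 in CRE-labelled BMDCs exceeded that in CRE-labelled BMDMs numbered 1 and 2 by 3.03 log2 units (edgeR adjusted p = 0.0234). It stands here because a test of the difference itself passed. The edgeR adjusted p was above 0.05 in 7 of 10 fits that left out 1 CRE library, with differences of 2.63 to 3.20. It was 0.563 with the BMDM libraries numbered 3. The difference was 3.03 with the CRE BMDMs summed and 2.72 with CRE BMDC number 2 only, fits with 1 library in a CRE group. All 3 BMDC numbers were higher with DMXAA (3.08-fold to 5.53-fold) and both BMDM numbers were lower (47.9% and 52.2% of control).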

How the results depend on the processing

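Values of the 6 genes were compared over the 4 CRE comparisons and the WT responses. Gls2 in the BMDM responses and Rasgrp1 in the CRE BMDM response were left out. Under an alternative, 462 values stayed the same. For CRE values this means the same direction and side of the threshold. For WT values, which carry no test, it means a shift within the spread between libraries. Of the CRE values, 30 lost a call, 24 gained one and 10 changed sign, and 11 WT values moved by more than the spread. Counts of called genes among the 6 include Pald1 and Rab3il1, for which a called DMXAA response restates the choice. Causes were not tested unless the setting itself removes libraries or genes.

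In CRE BMDCs, 3084 genes were called, 5181 with the replicate block, 1758 (3 of the 6 genes) with CRE-labelled libraries only and 413 (2) with CRE number 2 only. Tnfaip8l3 ran from -0.203 to 0.416 with each library left out, at -0.177 without control 2 and -0.203 without DMXAA 3, and was at -0.135 with numbers 1 and 3 only, and Rasgrp1 was at -0.281 with number 2 only.

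In CRE BMDMs, 1157 genes and 1 of the 6 were called, the 1 being Pald1, for which the call restates the choice. This became 0 and 0 with the libraries numbered 3, 2120 and 4 with no filter, 1908 and 2 with DESeq2, 2920 and 2 with the replicate block, 6186 and 3 with CRE-labelled libraries only, and 67 and 0 with numbers 1 and 2 summed. Each library left out gave 248 to 321 genes and 0 of the 6. A minimum of 5 FPKM called 2 of the 6, and an unadjusted p of at most 0.05 with a log2 change of at least 1 called 3. In BMDMs the pair correlation was 0.0188 for the CRE label and 0.636 for the WT label, over 2 pairs each. The CRE value gave no ground to read the numbers as pairs, so the BMDM block result is shown only here.

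For the difference between cell types, 81 genes and 1 of the 6 were called. This became 0 and 0 with the libraries numbered 3, 480 and 3 with no filter, 350 genes with DESeq2, 181 and 2 (Lrp8 and Gls2) with limma on log2(FPKM + 1), 125 and 2 (the same genes) with limma on log2(FPKM + 0.1), 764 genes with the replicate block, 30 genes with CRE-labelled libraries only, 4 and 0 with BMDC number 2 only, 410 and 3 with BMDC numbers 1 and 3 only, 1 and 0 with BMDMs summed, and 744 and 2 with the unadjusted threshold. Each library left out gave 10 to 288 genes and 0 to 2 of the 6. Rasgrp1, whose BMDMs are at the floor, was at -0.76 and turned to 0.606 with the libraries numbered 3, 0.989 and 0.900 with the limma fits, and 0.150 and 0.489 without BMDM control 2 or DMXAA 2, in a range of -2.99 to 0.489 with each library left out. Pald1 was at 0.446 with BMDC number 2 only.

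Between resting CRE cells, 3658 genes were called, 1114 with the libraries numbered 3, 5760 with the replicate block (within cell type and label, so that this contrast lies between blocks), 2057 with BMDMs summed, and from 2175 (without BMDM control 1) to 3648 with each control left out. With no filter all 6 genes were called. Depth limits Gls2 and Rasgrp1 in BMDMs, where the CRE libraries numbered 1 and 2 hold at most 4 counts each and no DMXAA response can be read.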
